A study of Mus musculus with 9 samples.

Results

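Atf4, the genes of serine synthesis and the best known targets of ATF4 were followed through muscle cells of the mouse. The 10 genes were Atf4, Phgdh, Psat1, Psph, Shmt2, Mthfd2, Asns, Chac1, Trib3 and Ddit3. They were chosen by symbol, matched to Ensembl identifiers, out of 47529 genes listed in the count files, and all 10 were found. These genes and the gene lists compared below were chosen with earlier results of these data known. Shares over all genes set beside their counts therefore describe and do not test. RNA was sequenced from 9 libraries of 4 groups, all of the strain C57BL/6. The group GAS was gastrocnemius muscle of female mice aged 8 to 12 weeks (3 libraries). MB were primary myoblasts (2 libraries) in growth medium of DMEM and a Ham's nutrient mix with horse serum, fetal bovine serum and basic FGF. MT were primary myotubes after 3 days in low-serum differentiation medium based on DMEM alone (2 libraries). Base medium, serum and FGF thus changed together with differentiation, and their parts cannot be told apart. MB_lac were myoblasts whose medium received 10 mM sodium-L-lactate in PBS (2 libraries), and the control MB received PBS alone. The wider study profiled histone lactylation, and these libraries allow the question of how the genes differed between MB and MT, and whether added lactate moved them in MB.

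ATF4 is a transcription factor of the bZIP family, and its translation increases when stress kinases phosphorylate the initiation factor eIF2, the integrated stress response. Among its targets are enzymes that make serine from a glycolytic intermediate (Phgdh, Psat1 and Psph, in that order) and mitochondrial enzymes that pass a carbon unit from serine to folate (Shmt2 and Mthfd2), which feeds purine and thymidylate synthesis in dividing cells. Further targets make asparagine (Asns), degrade glutathione (Chac1), restrain ATF4 itself (Trib3) or act in prolonged stress (Ddit3, which encodes CHOP).

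Levels are given as CPM, a gene's counts scaled to a common library total and adjusted for library composition with edgeR's TMM factors. Total counts were 19307793 to 19941574 per GAS library and 5198247 to 10839516 per library of cultured cells. In cultured cells 3 counts, the limit that a count of 0 allows, equal 0.277 to 0.577 CPM before the TMM adjustment. Limits of this kind cover counting error only. Poly(A) selection preceded the GAS libraries, whereas Smart-seq2 was used for the cultured cells, so GAS was described and not tested against the cultures. Replicate 1 of MT held counts for 28599 genes, against 15548 to 17965 in the other cultured libraries. Nothing in the labels says that the cultures came from separate animals, so p-values measure the spread between these libraries, which may be technical.

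Summed markers of differentiating muscle and of cycling cells followed the labels of MB and MT, and those of myoblasts did not. The 4 myoblast genes (Pax7, Myf5, Myod1 and Des) summed to 981 to 1991 CPM in MB and 1531 to 3288 CPM in MT. In GAS they summed to 2370 to 2431 CPM. Pax7, Myf5 and Myod1 were lower in both MT libraries than in both MB libraries, with only Pax7 called (log2 fold change -4.11). Des was higher in both, at 1370 and 2900 CPM in MT against 754 and 223 CPM in MB, and was not called. The summed level of 6 genes of differentiating and mature muscle was 90.2 to 196 CPM in MB, 9993 and 13110 CPM in MT and 46407 to 50873 CPM in GAS, and all 6 rose in MT. In GAS the sum was almost all Ckm (mean 23798 CPM) and Acta1 (24102 CPM), with Mb at 951 CPM. Myog (7.12 CPM), Mymk (0.101 CPM) and Myh3 (2.21 CPM) were lower in GAS than their means in MB (61.1, 27.9 and 10.5 CPM). The summed level of 4 genes of cycling cells was 864 to 1385 CPM in MB, 187 to 254 CPM in MT and at most 1.82 CPM in GAS, and 3 of the 4 were called lower in MT. MT also carried genes of fibroblasts. The 5 fibroblast markers summed to 2.17 to 2.70 CPM in MB, 0.703 to 2.13 CPM in MB_lac, 1875 and 13536 CPM in MT, with replicate 1 the higher, and 339 to 434 CPM in GAS. In MT the sum was almost all Col1a1 (13116 and 1762 CPM) and Dcn (408 and 110 CPM), while Pdgfra was at 5.66 and 2.54 CPM, Lum at 6.03 and 0.763 CPM and Thy1 at 0.0745 and 0 CPM. Endothelial markers summed to at most 11.3 CPM and the 4 of macrophages and leukocytes to at most 16.8 CPM in any cultured library, both in replicate 1 of MT. In GAS the 4 endothelial markers summed to 133 to 147 CPM and the 4 of adipocytes to 128 to 172 CPM. The part of other cell types and of the lower cycling markers in the results on MT was not tested. In RNA from whole cultures or tissue, fewer cells of a type and less RNA per cell cannot be told apart.

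From MB to MT, 6 of the 10 genes fell (Phgdh, Psat1, Psph, Shmt2, Mthfd2 and Asns), by between 2.80-fold and 9.32-fold. None was called higher. A gene was called at an adjusted p under 0.05 and an absolute log2 fold change over 0.5 in edgeR's quasi-likelihood test over 12921 genes, which called 6.86% of them lower and 11% higher. The median log2 fold change was -1.69 over the 10 genes and 0.07 over all genes tested. In 7 of the 10, both MT libraries lay below both MB libraries, as they did in 29.2% of all genes, and in 1, Ddit3, both lay above, as in 32.9%. Which of the 10 were called changed when 1 library was left out, and the number called over all genes changed too. Such changes are therefore no result about these 10 genes alone, and calls lost or gained are named below. A fit without a library leaves 1 group with 1 library, which is assumed to vary like the libraries of the other group, here and wherever a library is left out.

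**Figure D1:**
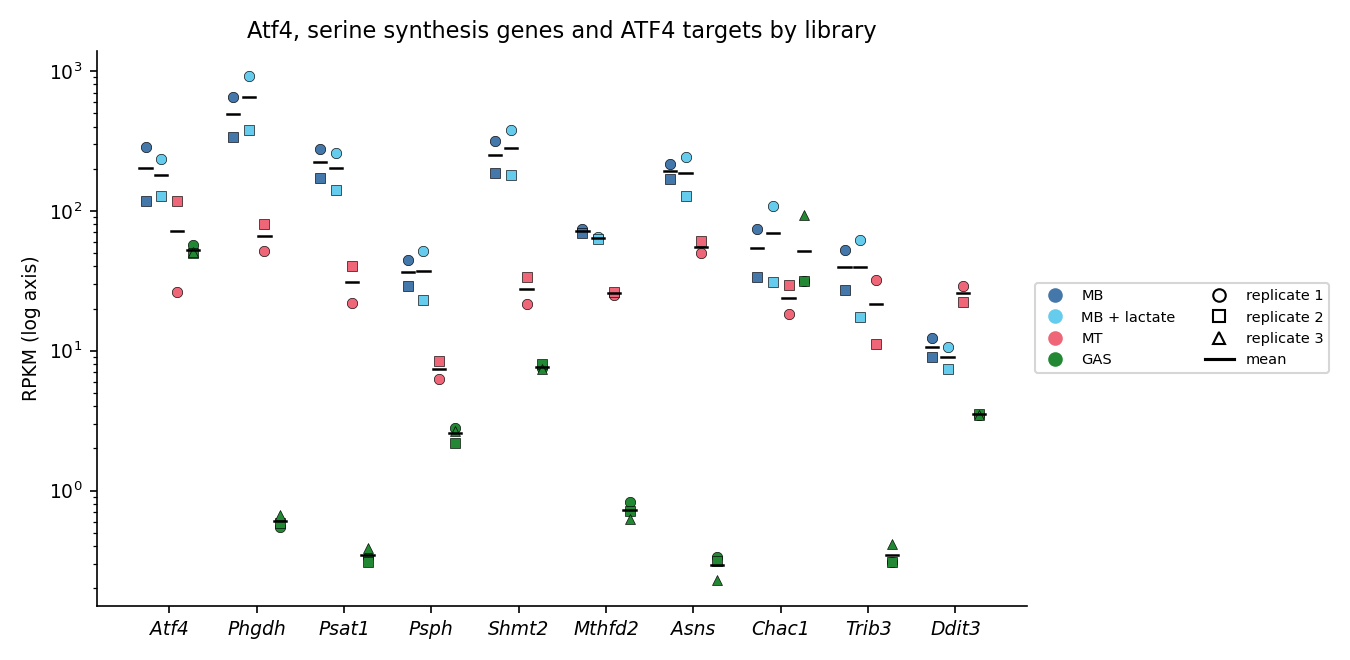
Level of each of the 10 genes in every library, as RPKM (CPM per kilobase of exon) on a log axis, with circles, squares and triangles for replicates 1, 2 and 3 and a bar for the mean of each group. The MT points lie below the MB points in 7 genes and above them in Ddit3, and 5 genes lie under 1 RPKM in GAS.

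Atf4 itself was measured at 675 and 276 CPM in MB and at 61.7 and 278 CPM in MT. The MT library of replicate 2 thus reached the lower MB library, and the groups overlapped. The log2 fold change was -1.57 ± 0.70 (SE), with a 95% interval from -3.13 to -0.015 and an adjusted p of 0.150 (edgeR), so Atf4 was not called. This value turned on single libraries, since Atf4 was called lower without replicate 2 of MT (log2 fold change -3.08) and without replicate 2 of MB (-2.16), each in a fit where 1 group had 1 library. ATF4 is regulated largely at translation, which counts of RNA do not measure.

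The enzymes of the serine pathway fell together. Phgdh, the first and committed enzyme, was at 1617 and 842 CPM in MB and at 127 and 201 CPM in MT. Both MT libraries were far below both MB libraries, and the fold was 7.71 (log2 fold change -2.95 ± 0.60, adjusted p = 0.00824, edgeR). Psat1, the aminotransferase of the pathway, was at 1174 and 735 CPM in MB and at 93.1 and 171 CPM in MT. Again no MT library reached an MB library, and Psat1 was 7.43-fold lower (log2 fold change -2.89 ± 0.58, adjusted p = 0.00717). Psph, the phosphatase that releases serine, was at 192 and 125 CPM in MB against 27.3 and 36.4 CPM in MT. It stood apart in the same way, 5.09-fold lower (log2 fold change -2.35 ± 0.47, adjusted p = 0.00723). The Psph value is uncertain, because Psph shares exon bases with Cct6a on the opposite strand, which had up to 8281 counts in a cultured library, and the strand setting of the counting is not given in the sources used here. Without replicate 1 of MT, the calls on Phgdh (log2 fold change -2.71), Psat1 (-2.56) and Psph (-2.21) were lost.

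Of the 10 genes, Shmt2 had the largest change. Shmt2, which splits serine to glycine in mitochondria, was at 987 and 580 CPM in MB and at 67.5 and 105 CPM in MT. The libraries did not overlap, and the fold was 9.32 (log2 fold change -3.22 ± 0.56, adjusted p = 0.00386, edgeR). In the fit without replicate 1 of MT, with its single MT library, Shmt2 was the 1 gene of the 10 called. Its exons overlap Ndufa4l2 on the other strand, a gene with at most 11 counts in any cultured library and 78 in GAS. Mthfd2, the next mitochondrial enzyme, which oxidises methylene-tetrahydrofolate, was at 258 and 243 CPM in MB and at 87.9 and 91.4 CPM in MT. Its replicates were the closest of the 10 genes, and it fell 2.80-fold (log2 fold change -1.48 ± 0.43, adjusted p = 0.0376). This call was lost with no filter on low counts (adjusted p = 0.0560) and without either MT library (log2 fold changes -1.52 and -1.61).

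Asns was at 590 and 459 CPM in MB and at 136 and 166 CPM in MT. Both MT libraries were lower, and Asns fell 3.52-fold (log2 fold change -1.82 ± 0.48, adjusted p = 0.0252, edgeR). The call was lost without either MT library, at log2 fold changes of -1.74 and -2.06.

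Of the targets linked to prolonged stress, none was called. Chac1 was at 122 and 55.2 CPM in MB and at 29.8 and 48.6 CPM in MT. Both MT libraries were lower, with a small gap to the lower MB library, and the log2 fold change of -1.22 ± 0.52 was not called (adjusted p = 0.132, edgeR). Trib3, a pseudokinase, was at 111 and 57.3 CPM in MB and at 67.8 and 23.8 CPM in MT. The groups overlapped, with a log2 fold change of -0.86 ± 0.60 (adjusted p = 0.348). Ddit3 was at 21.1 and 15.4 CPM in MB and at 49.9 and 38.3 CPM in MT. It was the one gene of the 10 with both MT libraries above both MB libraries, and its log2 fold change of 1.27 ± 0.50, with a 95% interval from 0.18 to 2.37, was not called (adjusted p = 0.103). Ddit3 shares exon bases with Mars on the opposite strand, which had up to 4529 counts in a cultured library. Without replicate 2 of MB, Chac1 (log2 fold change -1.80) and Trib3 (-1.41) were called lower.

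**Figure D2:**
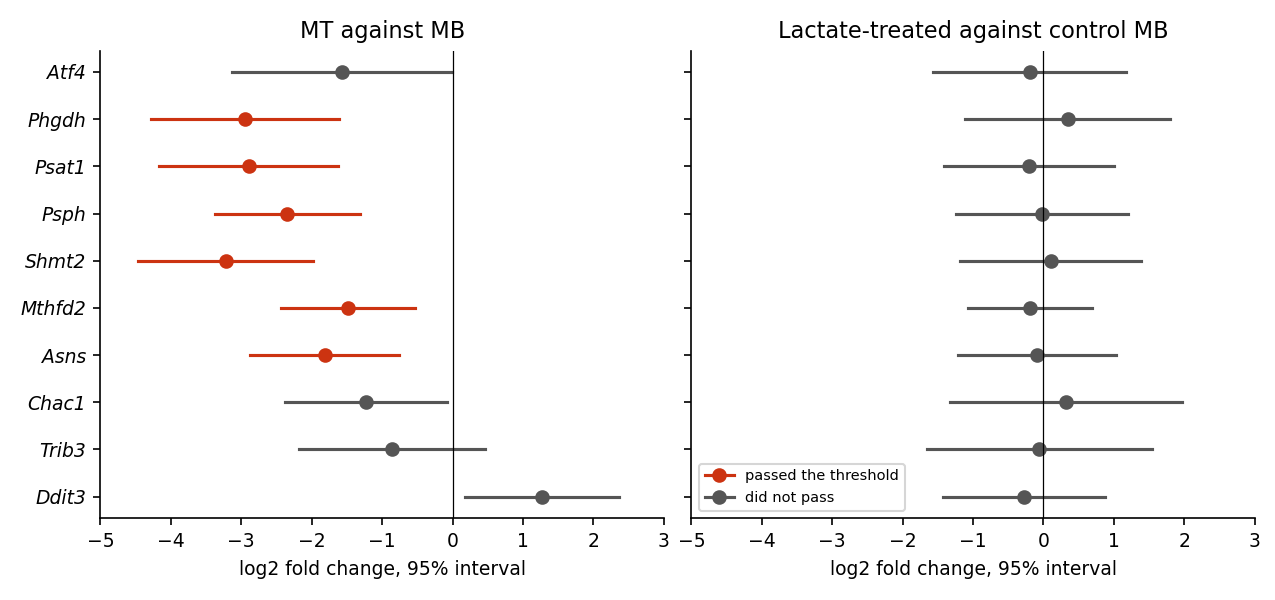
Log2 fold change of each gene with its 95% interval, for MT over MB on the left and for lactate-treated over control MB on the right. Red marks the 6 genes that passed the threshold, all in MT against MB, and every interval under lactate spans 0.

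The promoters are shown because ATF4 binds DNA with a C/EBP partner at composite sites, and because the targets that fell and those that did not can be compared by them. Windows from 250 bases before to 50 after each start were taken from RefSeq (GRCm38.p6), which held all 10 genes. The composite site was searched as TGATGNAA on both strands (TTNCATCA on the reverse). It was present in 3 of the 10 genes, Asns, Chac1 and Trib3, and in 4.51% of all 27025 genes (3.97% of 32851 windows, some genes having more than 1). In the following lines, each 5′ to 3′ on the strand of the gene, capitals mark the match, and Phgdh and Shmt2, the enzymes with the highest level in MB and the largest fall, are shown without one. The regions are chr6:7693160-7693459 (minus strand) for Asns, chr2:119350992-119351291 (plus strand) for Chac1, chr2:152344011-152344310 (minus strand) for Trib3, chr3:98339920-98340219 (minus strand) for Phgdh and chr10:127522395-127522694 (minus strand) for Shmt2.
Asns: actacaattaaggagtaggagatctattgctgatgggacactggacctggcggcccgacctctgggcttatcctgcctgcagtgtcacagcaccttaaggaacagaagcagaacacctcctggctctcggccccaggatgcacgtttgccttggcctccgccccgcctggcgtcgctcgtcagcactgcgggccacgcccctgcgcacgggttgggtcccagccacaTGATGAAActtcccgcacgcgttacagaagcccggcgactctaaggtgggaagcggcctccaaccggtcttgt
Chac1: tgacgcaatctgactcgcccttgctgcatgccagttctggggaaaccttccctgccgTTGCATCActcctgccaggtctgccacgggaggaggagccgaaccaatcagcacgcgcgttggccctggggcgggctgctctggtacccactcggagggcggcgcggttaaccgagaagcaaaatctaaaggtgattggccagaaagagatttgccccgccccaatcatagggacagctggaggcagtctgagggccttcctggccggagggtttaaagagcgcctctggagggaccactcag
Trib3: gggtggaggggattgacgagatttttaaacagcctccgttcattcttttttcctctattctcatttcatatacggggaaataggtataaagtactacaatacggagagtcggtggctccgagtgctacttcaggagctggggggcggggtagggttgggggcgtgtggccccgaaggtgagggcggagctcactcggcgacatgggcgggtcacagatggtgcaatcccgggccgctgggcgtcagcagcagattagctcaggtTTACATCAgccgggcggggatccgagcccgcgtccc
Phgdh: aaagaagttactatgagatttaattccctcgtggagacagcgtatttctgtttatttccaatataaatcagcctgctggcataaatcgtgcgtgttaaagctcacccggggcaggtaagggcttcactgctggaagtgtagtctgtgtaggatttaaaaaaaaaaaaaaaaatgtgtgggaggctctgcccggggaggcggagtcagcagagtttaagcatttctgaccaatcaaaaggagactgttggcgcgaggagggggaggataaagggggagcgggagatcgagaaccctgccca
Shmt2: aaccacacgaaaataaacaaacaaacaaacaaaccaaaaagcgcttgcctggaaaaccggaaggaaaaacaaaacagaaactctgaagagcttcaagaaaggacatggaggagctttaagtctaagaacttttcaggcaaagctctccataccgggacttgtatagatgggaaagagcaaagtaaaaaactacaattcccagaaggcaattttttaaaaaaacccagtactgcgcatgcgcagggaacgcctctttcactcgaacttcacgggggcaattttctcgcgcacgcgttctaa

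The match began 23 bases before the start in Asns, 193 before it in Chac1 and 15 after it in Trib3. Of these 3 genes, Asns was called lower in MT, and the other two were not called. Phgdh, Psat1, Psph, Shmt2 and Mthfd2, all called lower, held no match in these windows, which says only that the letters are not there. CACGTG, the E-box, was in 7.15% of all windows, TGACGTCA, the CRE, in 1.79%, and the endoplasmic reticulum stress element, CCAAT and CCACG with 9 bases between them, in 0.119%, and none of these was in a window of the 10 genes. The member windows had a median GC content of 60.3% and a median of 20 CpG dinucleotides, against 52.7% and 7 over all windows.

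The chromosomal positions of the genes are scattered (GRCm38). Atf4 lies at chr15:80255184-80257541, Phgdh at chr3:98313170-98339990, Psat1 at chr19:15904678-15947337 and Psph at chr5:129765558-129787449. Mthfd2 lies at chr6:83305691-83325908, on the same chromosome as Asns (chr6:7675169-7693254). Chac1 (chr2:119351229-119354381) and Trib3 (chr2:152337422-152344032) share a chromosome too. Ddit3 (chr10:127290774-127296288) and Shmt2 (chr10:127517123-127522444) are the nearest pair, 220834 bases apart, with log2 fold changes in MT of 1.27 (not called) and -3.22.

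The paralogs of the 10 genes were followed as well, and 4 of 8 were called lower in MT, against none higher. Over all genes tested, 6.86% were called lower and 11% higher. Shmt1, the cytosolic counterpart of Shmt2, was at 93.0 and 87.3 CPM in MB and at 5.14 and 7.89 CPM in MT. Both MT libraries were far below, with a log2 fold change of -3.81 ± 0.50 (adjusted p = 0.000770, edgeR). Mthfd1, the cytosolic enzyme of several folate steps, had a log2 fold change of -2.34 ± 0.47 and Mthfd1l, which makes formate in mitochondria, one of -2.19 ± 0.45 (adjusted p = 0.00765 and 0.00867). Trib1, a relative of Trib3, had -1.96 ± 0.48 (adjusted p = 0.0182). Mthfd2l, which catalyses the same step as Mthfd2, was not called, with 10.9 and 11.3 CPM in MB and 10.7 and 4.71 CPM in MT (adjusted p = 0.641). Chac2 had a log2 fold change of 0.56 and Trib2 one of 1.07, neither of them called (adjusted p = 0.534 and 0.143). Atf5, the closest relative of Atf4, was at 44.6 and 43.6 CPM in MB and at 18.0 and 77.7 CPM in MT. As with Atf4, replicate 1 of MT was low and replicate 2 was not, and the log2 fold change was 0.07 (adjusted p = 0.954).

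**Figure D3:**
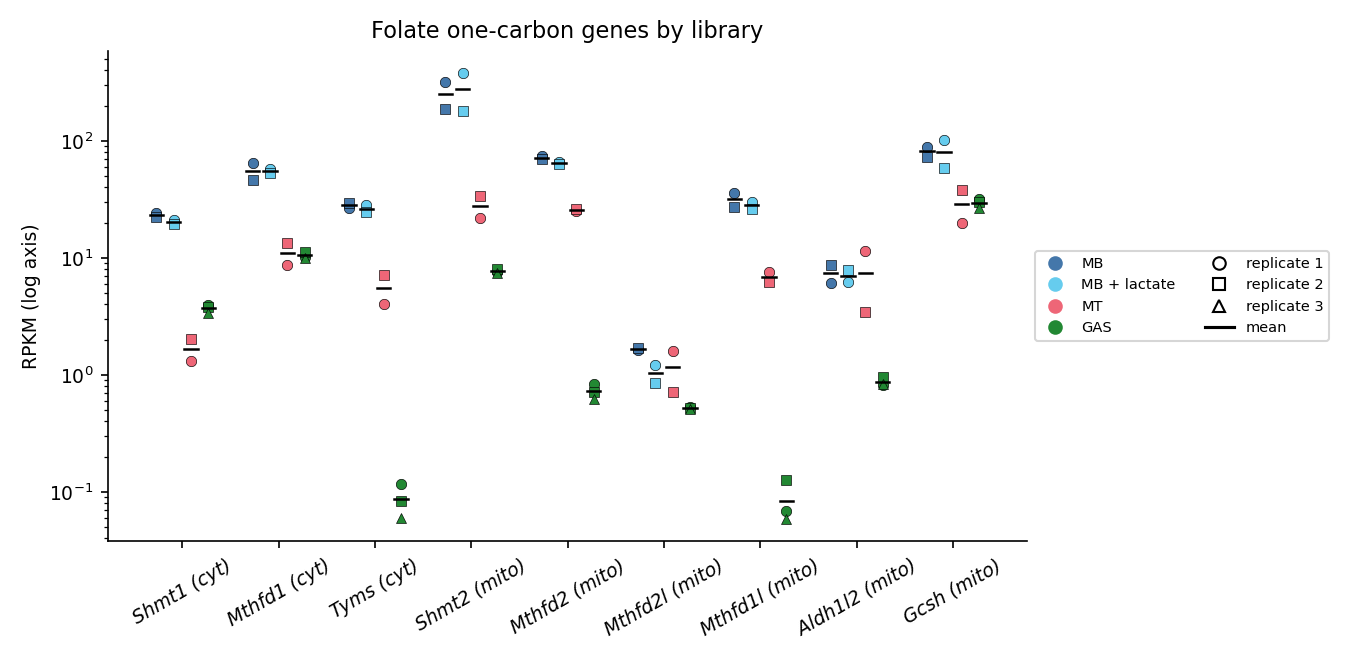
Level of folate one-carbon genes in every library, as RPKM on a log axis, with circles, squares and triangles for replicates 1, 2 and 3 and a bar for the group mean. Cytosolic enzymes stand on the left and mitochondrial ones on the right, and the MT points lie below the MB points in Shmt1, Mthfd1, Tyms, Shmt2, Mthfd2, Mthfd1l and Gcsh, narrowly so in Mthfd2l, and overlap them in Aldh1l2.

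Among 15 folate one-carbon and glycine enzymes, 14 were tested. Of these, 6 were called lower and 1 higher, against 6.86% lower and 11% higher over all genes tested. Besides the paralogs, the lower ones included Tyms, which makes thymidylate (log2 fold change -2.36 ± 0.45, adjusted p = 0.00608, edgeR), and Gcsh, of the glycine cleavage system (-1.53 ± 0.46, adjusted p = 0.0426). Gldc, the decarboxylase of the same system, was the one called higher, at 0.613 and 0 CPM in MB and 5.73 and 6.74 CPM in MT. Its fitted log2 fold change of 4.25 ± 1.18 (adjusted p = 0.0314) depends on the prior count, since replicate 2 of MB had none. Tyms is also known as a gene of S phase, and the cycling markers were lower in MT. A link between them was not tested.

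Of 9 amino acid transporters tested out of 10, 3 fell and none rose, against 6.86% lower and 11% higher over all genes tested. The 3 were Slc38a1 (log2 fold change -2.02 ± 0.43, adjusted p = 0.00972, edgeR), a glutamine carrier, Slc7a1 (-2.01 ± 0.62, adjusted p = 0.0460), which imports cationic amino acids, and Slc1a5 (-1.81 ± 0.43, adjusted p = 0.0159), which carries glutamine and other neutral amino acids. The 20 cytosolic aminoacyl-tRNA synthetases, many of which ATF4 is known to regulate, gave 1 call, Vars (log2 fold change -2.54 ± 0.56, adjusted p = 0.0112). This is a share near the 6.86% of all genes called lower. Their values still lay mostly on one side, with 19 of 20 below 0, a median of -1.03 and 18 with both MT libraries under both MB libraries (29.2% of all genes). DESeq2 and the likelihood ratio test of edgeR each called 5 of these 20 lower. The 6.86% belongs to the quasi-likelihood test and is not the share for these methods. Over all genes the likelihood ratio test called more genes lower.

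A further 16 known ATF4 targets split, with 3 called lower and 5 higher, against 6.86% lower and 11% higher over all genes tested. Their median log2 fold change was -0.85. Lower were Cth, which makes cysteine (log2 fold change -3.27 ± 0.61, adjusted p = 0.00546, edgeR), Sesn2, a leucine sensor of mTORC1 (-1.57 ± 0.47, adjusted p = 0.0413), and Xpot, a tRNA exporter (-1.43 ± 0.44, adjusted p = 0.0467). Higher were Ero1l, an oxidase of the endoplasmic reticulum (3.52 ± 0.94, adjusted p = 0.0262), Vldlr, a lipoprotein receptor (2.63 ± 0.75, adjusted p = 0.0352), and Gadd45a, a growth arrest gene (2.54 ± 0.65, adjusted p = 0.0228), together with Nupr1 (2.35) and Ddit4 (1.90), named for completeness after their values were seen. Ero1l was at 861 CPM in replicate 1 of MT and at 81.3 CPM in replicate 2, with 28.6 and 59.3 CPM in MB, so the fold rested mostly on 1 library. Vldlr was at 50.8 CPM in replicate 1 of MT and at 11.95 CPM in replicate 2, with 6.37 and 3.98 CPM in MB, and rested mostly on the same library.

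Upstream of ATF4, none of 12 genes of the eIF2 kinases, eIF2, its exchange factor and its phosphatase subunits was called (median -0.38). Of 8 bZIP partners and relatives, 1 was called higher, a share near the 11% of all genes called higher. It was Nfe2l1, a factor known for proteasome genes (log2 fold change 1.67 ± 0.49, adjusted p = 0.0396, edgeR). The call was lost with the replicate number as a block (adjusted p = 0.0726, edgeR). Of 12 targets of ATF6 and XBP1, the other branches of the endoplasmic reticulum stress response, 2 co-chaperones were called higher, a share near the 11% of all genes called higher, Dnajb9 (1.74 ± 0.52, adjusted p = 0.0406) and Dnajc3 (1.70 ± 0.51, adjusted p = 0.0438). Of 6 mitochondrial chaperones and proteases, the folding pair Hspe1 (-2.59 ± 0.53, adjusted p = 0.00790) and Hspd1 (-2.27 ± 0.52, adjusted p = 0.0145) fell. Over all 101 genes of these lists, 99 were tested, 16 were lower and 9 higher, against 6.86% lower and 11% higher over all genes tested.

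**Figure D4:**
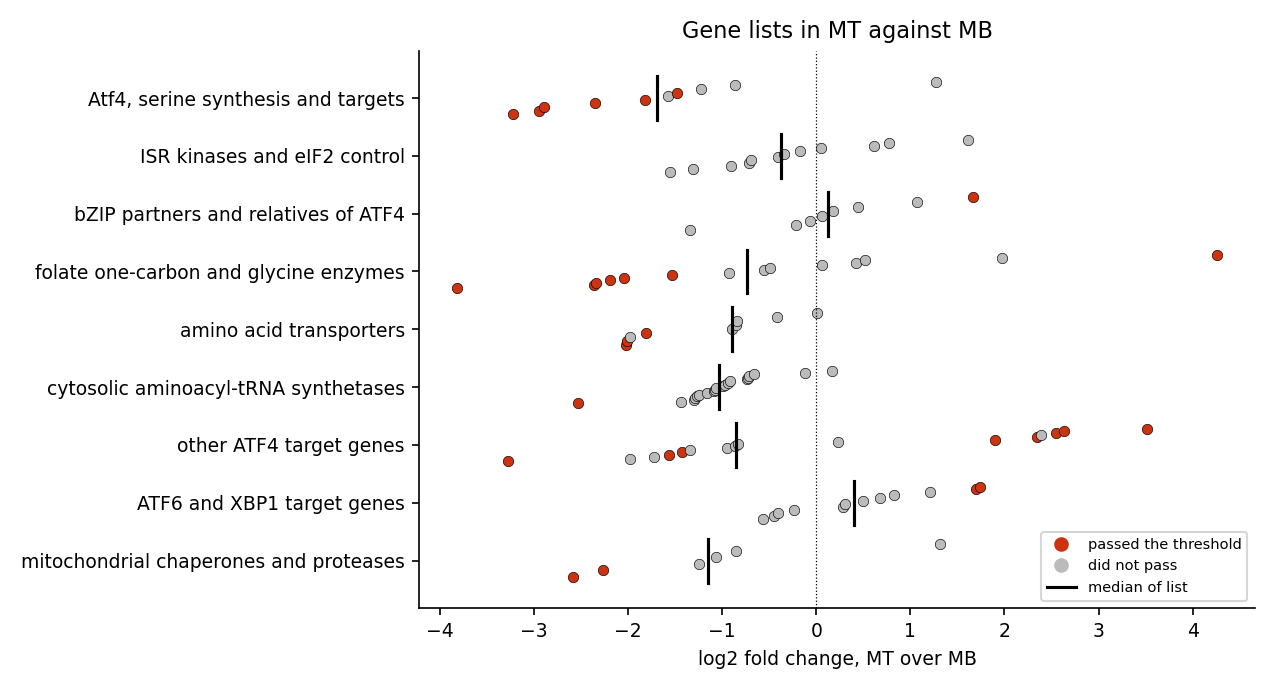
Log2 fold change of MT over MB for each tested gene of the lists, 1 row per list, with called genes in red and the median of the list as a vertical bar. The synthetases lie mostly left of 0 with 1 call, and the further ATF4 targets fall on both sides.

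The libraries of a group differed in these genes. In MB, all 10 were higher in replicate 1 than in replicate 2, by a ratio of 1.06 to 2.45 (median 1.65), whereas 49.7% of 12921 genes were. In MB_lac all 10 were again higher in replicate 1, by 1.04 to 3.54 (median 2.01), against 47% of 11804 genes. The smallest ratio was that of Mthfd2 in both groups, and the largest that of Atf4 in MB and of Trib3 in MB_lac. In MT only Trib3 and Ddit3 were higher in replicate 1. The share of counts on ribosomal RNA genes moved with the replicate, at 10.1% and 2.02% in MB, 15.7% and 1.83% in MB_lac and 0.655% and 2.97% in MT. Its part in the difference between replicates was not tested, and the 6 calls in MT stood when those genes were left out of library sizes and fit. Higher levels in replicate 1 of both MB and MB_lac were found for 37.7% of all genes. They were found for 12 of 20 synthetases, 11 of 15 further ATF4 targets, 5 of 8 paralogs and 4 of 8 bZIP genes. The counts were 5 of 12 folate enzymes, 4 of 10 transporters and 4 of 12 ATF6 and XBP1 targets. In the eIF2 list it was 2 of 12, and 2 of 6 mitochondrial chaperones and proteases.

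**Figure D5:**
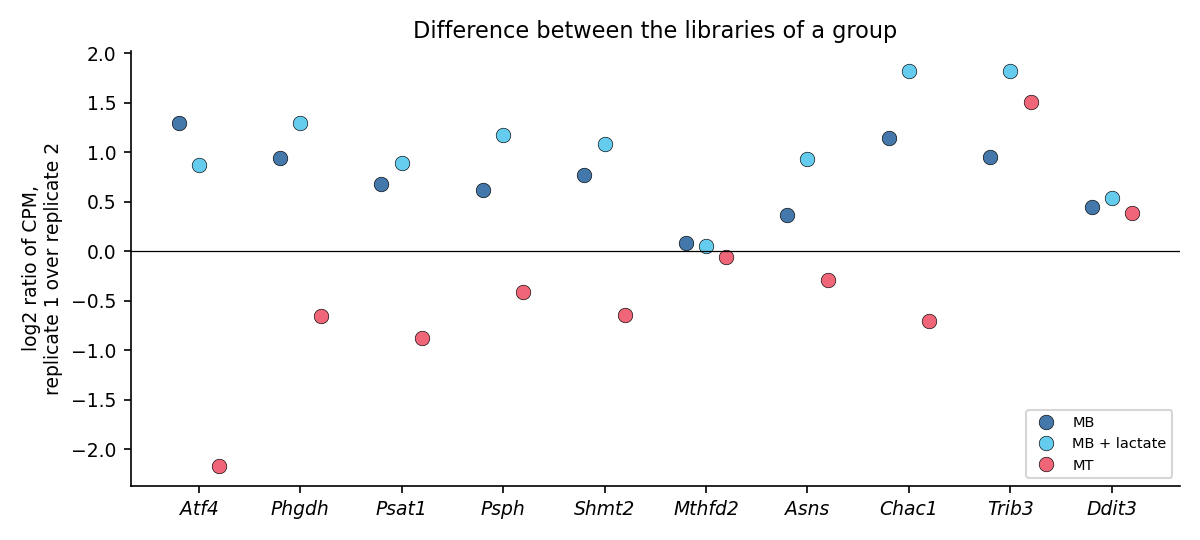
Log2 ratio of CPM in replicate 1 over replicate 2 for each gene in MB, MB_lac and MT. All points of MB and MB_lac lie above 0, and in MT 2 genes do.

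Lactate moved none of the 10 genes past the threshold. The comparison of MB_lac with MB was made at a nominal p under 0.01 with an absolute log2 fold change over 0.5. This called 0 of 11804 genes (0%), and 5 genes had an unadjusted p under 0.05 (0.0424%). With edgeR and these thresholds the study itself reported a small group of genes, some higher and some lower. It states neither which edgeR test was used nor a replicate term, so the counts here do not repeat its own. DESeq2 called 2 genes at the same threshold, none of them among the 10. Log2 fold changes ran from -0.28 in Ddit3 to 0.34 in Phgdh, with a median of -0.07, and every adjusted p was 1 (edgeR). No gene of the pathway lists was called. The 5 genes at a p under 0.05 are far fewer than unchanged genes alone would give. Same-numbered libraries of MB and MB_lac deviated together (r = 0.705), and a fit without a replicate term counts this as spread. With the replicate number as a block, edgeR's biological coefficient of variation fell from 0.455 to 0.2245, and still none of the 10 was called. The intervals below come from the fit without that block.

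In lactate-treated MB, Phgdh was at 2287 and 935 CPM, against 1617 and 842 CPM in MB. The groups overlapped, since the 2 libraries of each group differed more than the groups did. The log2 fold change was 0.34, with a 95% interval from -1.11 to 1.80 in the fit without the replicate block. Changes of 2-fold either way were within that interval, which counts the deviation shared by same-numbered libraries as spread. With the block the log2 fold change of Phgdh was 0.29. No interval is given for the fit with the block, so whether it would exclude a 2-fold change was not tested. Chac1, at 178 and 50.7 CPM, had the widest interval, from -1.32 to 1.96. Atf4 was at 553 and 302 CPM after lactate (interval -1.57 to 1.18), both between the 2 MB libraries. Mthfd2, at 228 and 220 CPM, was the 1 gene of the 10 with both treated libraries below both controls, as in 6.84% of all genes, and no gene of the 10 had both above, as in 4.28%. Its log2 fold change was -0.19, with an interval from -1.08 to 0.69, the narrowest of the 10.

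For the other genes the groups overlapped too. Psat1 was at 1110 and 599 CPM, Psph at 224 and 99.2 CPM and Shmt2 at 1178 and 556 CPM. Asns was at 666 and 350 CPM, Trib3 at 130 and 36.8 CPM and Ddit3 at 18.3 and 12.6 CPM. In each of these genes replicate 1 was the higher library in both groups. The ratio of the treated to the control library of the same number was above 1 in replicate 1 and below 1 in replicate 2 for Psph, Shmt2, Asns, Chac1 and Trib3, the reverse for Atf4, above 1 in both for Phgdh, and below 1 in both for Psat1, Mthfd2 and Ddit3.

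In GAS, 5 of the 10 genes had a mean above 1 RPKM (CPM per kilobase of exon, which allows genes to be compared), and Mthfd2 passed it too, at 1.21 RPKM, with the length of the longest transcript. Atf4 stood at 56.8, 49.6 and 51.0 RPKM and Chac1 at 31.5, 31.5 and 92.7 RPKM. The 2 did not differ beyond their spread, and replicate 3 of Chac1 was far above the other libraries. Without it the mean of Chac1 was 31.5 RPKM. Shmt2 followed at 7.70 ± 0.34 RPKM (SD, n = 3), Ddit3 at 3.50 ± 0.042 and Psph at 2.56 ± 0.32, each separate from its neighbours. The levels of Ddit3 and Psph are uncertain, as both share exon bases with a gene on the opposite strand. Ddit3 had 117, 120 and 115 counts, beside up to 1244 for Mars. Psph had 239, 188 and 224 counts, beside up to 1695 for Cct6a. Mthfd2 (0.722 ± 0.10 RPKM) and Phgdh (0.603 ± 0.059) overlapped, and so did Trib3 (0.345 ± 0.061), Psat1 (0.345 ± 0.042) and Asns (0.292 ± 0.057). Asns had 18, 17 and 12 counts in the 3 libraries, above the limit of 3 counts.

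The first enzymes of the serine pathway were thus listed at about 1 to 2 CPM in GAS, with 1.37, 1.47 and 1.66 CPM for Phgdh and 1.42, 1.32 and 1.66 CPM for Psat1. These sit beside 842 to 1617 CPM and 735 to 1174 CPM in MB, from libraries of another protocol. The cycling markers were at 1.82 CPM or less in sum in GAS. Among the other genes, Nfe2l1 was at 600 to 610 CPM and Mthfd1l at 0.260 to 0.557 CPM in GAS.

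Within MB the order by mean RPKM was Phgdh (495), Shmt2 (252), Psat1 (224), Atf4 (202), Asns (192), Mthfd2 (71.8), Chac1 (54.0), Trib3 (39.5), Psph (36.7) and Ddit3 (10.7). Only 3 of the 9 neighbouring pairs did not overlap, those after Phgdh, after Asns and after Psph. In MT the order was led by Atf4 (71.9 RPKM), Phgdh (66.1) and Asns (55.2), which overlapped. Psat1 (31.1), Shmt2 (27.8), Ddit3 (25.7), Mthfd2 (25.7), Chac1 (23.9) and Trib3 (21.5) formed a run without a break, and Psph (7.36) was last. With the longest transcript in place of the union of exons, Phgdh (86.8 RPKM) came before Atf4 (84.0) in MT, Psat1 before Shmt2 and Psph (55.2) before Chac1 in MB, and Phgdh and its next gene overlapped in MB.

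Genes with a profile most like 3 of the 10 were sought over the 6 cultured libraries, by the Pearson correlation of log2(CPM + 1) among 6987 genes with a mean of at least 20 CPM. The points share library, depth and group, so these correlations are descriptions. Nearest to Atf4 were Dlst (r = 0.997), Map2k2 (0.996) and Bag3 (0.995). Nearest to Phgdh were Ciapin1, Wrap53 and Abcf2 (0.999 each), and nearest to Chac1 were Apba3 (0.998), Sars (0.998), a seryl-tRNA synthetase, and Gm9816 (0.996). Among the 10 genes, Psph and Asns had a correlation of 0.999 and Phgdh and Shmt2 one of 0.996, while Atf4 had 0.859 with Phgdh and 0.318 with Trib3, and Ddit3 had -0.910 with Mthfd2.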

How the data were processed

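RNA sequencing of mouse GAS (3 libraries), MB, MT and lactate-treated MB (2 each) was used. Per the labels and methods, the authors made GAS libraries from poly(A) RNA and the others with Smart-seq2, trimmed reads with Trim Galore 0.6.6, aligned them to mm10 with HISAT2 2.2.1 and counted them with featureCounts of Subread 2.0.1, so that the deposited files hold unnormalized counts for each gene. The annotation release and the handling of strand and of reads with several alignments are not given in the sources used here. Reads from overlapping genes on opposite strands cannot be assigned with certainty.

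Groups came from the labels. The 10 genes and the gene lists were chosen with earlier results of these data known. Symbols, coordinates and exon lengths were taken from GENCODE M21 (GRCm38). CPM used TMM factors, computed separately for GAS and for cultured cells, and RPKM divides CPM by the union of exons in kilobases. MT and MB_lac were each compared with MB in a fit of those libraries alone (R 4.3.3, edgeR 4.0.16, filterByExpr, TMM, quasi-likelihood test, Benjamini-Hochberg adjustment over all genes tested). The SE is the log2 fold change divided by the root of F, and intervals are 95% intervals of the fitted log2 fold change. Tests were called at an adjusted p under 0.05 (MT) or a nominal p under 0.01 (lactate), with an absolute log2 fold change over 0.5. The fit was tested on simulated counts with 200 changed genes, at an adjusted p under 0.05 for both comparisons. For MT it called 3% of genes with a true log2 change of 1, 31.3% at 2 and 83.6% at 3. For lactate the shares were 0%, 31.3% and 74.6%. A gene that was not called in this fit can therefore still differ by 2-fold.

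All 10 genes and every paralog were named, and from each other list up to 3 called genes in each direction with the largest change and no overlap of libraries, except 1 gene that is not reported here. Python 3.11.15, numpy 2.4.6, pandas 2.3.3, matplotlib 3.10.9, DESeq2 1.42.0 and limma 3.58.1 were also used. Alternatives were DESeq2, RLE size factors, the likelihood ratio test, other filters on low counts, all 6 cultured libraries in one fit, no ribosomal RNA genes, the replicate number as a block and leaving out each library.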

Additional observations from a re-analysis of the deposited data

How the results depend on the processing

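Of the 10 genes, 6 were lower in MT under DESeq2, RLE size factors, the likelihood ratio test, all 6 cultured libraries in one fit and without ribosomal RNA genes. With no filter or at least 10 counts in every library, 5 were, as Mthfd2 (log2 fold change -1.48 and -1.37) had an adjusted p of 0.0560 and 0.0505. Leaving out 1 library gave 1 to 9. Without replicate 1 of MT, only Shmt2 remained called, and without replicate 2 of MT, 5 of the 10 were called, Atf4 among them. None of the 10 was higher in any setting. Without replicate 1 of MT, 2 of the paralogs, 2 of the folate enzymes, 1 transporter and no synthetase or mitochondrial chaperone were lower, and 1 further ATF4 target was higher. With no filter or at least 10 counts in every library, no folate enzyme was higher, and DESeq2 and the likelihood ratio test each called 1 gene of the eIF2 list lower. Over all genes, 766 were higher with at least 10 counts in every library and 1343 lower with the likelihood ratio test, against 1425 and 887, and leaving out 1 library gave 270 to 1570 lower and 962 to 4118 higher.

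The labels give biological replicate numbers only, and with 2 pairs these were not taken as pairing. The deviations of same-numbered libraries correlated at -0.132 over 12921 genes for MT and MB and at 0.705 over 11804 genes for MB_lac and MB. With the replicate number as a block, 4 of the 10 genes were lower in MT (Mthfd2 -1.48, adjusted p = 0.0821, and Asns -1.79, adjusted p = 0.0570 in edgeR, were lost), the calls on Gcsh (adjusted p = 0.0515), Sesn2 (0.0623), Xpot (0.0775), Nfe2l1 (0.0726) and Top2a (0.0681) were lost too, leaving 1 further ATF4 target lower and 5 higher, 824 genes were lower and 1447 higher, and under lactate none of the 10 and 13 genes in all were called, with 166 at a p under 0.05. A crossed block, chosen after seeing the data, called 7 of the 10, 867 genes lower and 1192 higher.

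Under lactate none of the 10 was called in any setting. Signs near 0 turned: Psph had 0.04 (DESeq2) and 0.05 (RLE), and Trib3 0.01 and 0.03. Leaving out 1 library gave log2 fold changes from -0.57 to 0.27 for Asns, -0.69 to 0.69 for Atf4, -0.79 to 1.11 for Chac1, -0.52 to 0.05 for Ddit3, -0.38 to 0.99 for Phgdh, -0.66 to 0.27 for Psat1, -0.66 to 0.43 for Psph, -0.48 to 0.63 for Shmt2 and -1.17 to 0.60 for Trib3. Over all genes, DESeq2 called 2 and the fit without a filter 1, and leaving out 1 library gave 1 to 177. In GAS, 5 genes were above 1 RPKM under both other normalizations and without any 1 library, and 6 with the longest transcript as length, Mthfd2 (1.21 RPKM) being added.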
